A study of Mus musculus with 12 samples.

Results

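The genes described here are 36 mouse genes of DNA replication and cell division, measured by RNA sequencing in whole testes of untreated mice and of mice given the drug busulfan, some of which then received gut microbiota from other mice. The list was drawn up by function. It holds 22 replication genes, whose products license, unwind and copy DNA or supply its precursors, and 14 mitosis genes, whose products condense chromosomes, drive division or check the spindle. Rows of the authors' table were matched to these symbols through their NCBI Gene IDs. All 36 genes are among the 22221 rows, and all 36 reached at least 1 FPKM in at least 3 libraries, as did 15472 rows in all. FPKM counts the fragments of a gene per length of its transcript and per sequenced total, so levels can be set side by side between genes.

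The 12 libraries come from ICR mice, an outbred stock, in 4 groups of 3. The Con group had no treatment, and the age of its mice is not given. The mice of the other 3 groups were all dosed once with busulfan when 3 weeks old, at a dose the labels do not give. Busulfan alkylates DNA and depletes dividing germ cells. The Sa group was then given saline. The IMC group was given gut microbiota of donor mice that had received ddH2O, and the IMA10 group that of donors that had received alginate oligosaccharide (spelled Aligina Oligosaccharide in the labels), short sugar chains cut from a seaweed polymer, at 10 mg/kg. Transfer lasted 2 weeks, and tissue was collected 3 weeks after that. The design text calls the tissue cultured testis but names no culture step. No label ties a library to 1 animal, so p-values measure only how far these samples spread, and that spread may be technical. The columns of Con carry another name prefix in the table than those of the busulfan groups. With this, and with the age of the Con mice not given, neither batch nor age can be told apart from treatment in comparisons with Con.

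A cell licenses its origins before S phase, when Cdc6 and Cdt1 load the ring of Mcm2 to Mcm7 onto DNA. Cdc45 and the GINS complex then turn the ring into the moving helicase, DNA polymerase alpha with its primase begins each strand, and the RFC complex loads the Pcna clamp that holds the copying polymerases on DNA. Later in the cycle Cdk1, Plk1 and the Aurora kinases drive mitosis, while Mad2l1, Bub1, Bub1b and Ttk hold back Cdc20 until the chromosomes are attached. In the testis spermatogonia divide by mitosis, preleptotene spermatocytes copy DNA for the last time, and spermatocytes then divide by meiosis with much of the mitotic machinery and no S phase in between.

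Many promoters of the first kind of gene hold sites of the E2F factors, and many of the second kind hold a CHR (the cell cycle genes homology region, bound by the MuvB complexes) together with CCAAT boxes, bound by NF-Y. The promoter windows were searched on both strands for TTTGGCGC, TTTCCCGC, TTTGCCGC and TTTCGCGC (E2F), for TTTGAA (CHR) and for CCAAT. The windows are those of RefSeq on GRCm38.p6, from 250 bases before to 50 bases after a start, and 30 of the 36 genes have one. The genes with none here are Mcm4, Gins1, Gins2, Rfc2, Pole and Aurkb. For Mcm5 and Top2a the start that sets the window lies inside the annotated gene, so their stretches reach into it. The following 5 stretches of 160 bases, which end at the base before the start, show the contrast between a pair of MCM genes and 3 mitosis genes. Each is written 5′ to 3′ on the strand of the gene, with every E2F, CHR or CCAAT match in capitals, whichever strand it lies on.
Mcm5, chr8:75109349-75109508, plus strand: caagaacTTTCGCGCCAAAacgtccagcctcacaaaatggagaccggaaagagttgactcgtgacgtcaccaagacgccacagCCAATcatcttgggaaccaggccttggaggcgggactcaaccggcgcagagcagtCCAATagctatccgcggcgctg
Mcm6, chr1:128359706-128359865, minus strand: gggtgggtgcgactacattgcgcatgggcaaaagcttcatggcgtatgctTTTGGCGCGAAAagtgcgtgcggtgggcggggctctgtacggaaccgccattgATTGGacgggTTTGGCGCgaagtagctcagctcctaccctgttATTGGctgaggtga
Cdk1, chr10:69352913-69353072, minus strand: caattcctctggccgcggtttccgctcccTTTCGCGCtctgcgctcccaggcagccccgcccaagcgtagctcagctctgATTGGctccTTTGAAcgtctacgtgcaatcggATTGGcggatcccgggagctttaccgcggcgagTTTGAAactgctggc
Top2a, chr11:99024190-99024349, minus strand: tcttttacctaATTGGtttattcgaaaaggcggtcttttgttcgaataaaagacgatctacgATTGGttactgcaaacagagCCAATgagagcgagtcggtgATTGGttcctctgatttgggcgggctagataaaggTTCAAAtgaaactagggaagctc
Cdc20, chr4:118437344-118437503, minus strand: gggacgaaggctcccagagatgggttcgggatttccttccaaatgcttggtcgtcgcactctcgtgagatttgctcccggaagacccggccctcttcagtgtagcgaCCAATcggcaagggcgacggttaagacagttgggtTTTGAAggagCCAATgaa
The long runs of capitals in Mcm5 and Mcm6 are E2F matches on both strands that overlap. Cdk1 holds an E2F match as well as CHR and CCAAT matches, while the stretches of Top2a and Cdc20 hold CHR and CCAAT matches only.

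An E2F match lay in 8 of the 17 replication genes with a window (47.1%), in 1 of the 13 mitosis genes (7.69%) and in 2.60% of all 27025 genes with a window. The replication genes with one are Mcm3, Mcm5, Mcm6, Mcm7, Cdc6, Cdt1, Rfc3 and Pola1, and the mitosis gene is Cdk1. A CHR match lay in 10 of the 13 mitosis genes (76.9%), in 2 of the 17 replication genes (11.8%), which are Mcm2 and Cdc45, and in 20.2% of all genes. CCAAT was common to both kinds, at 12 of 17 (70.6%) and 11 of 13 (84.6%) against 41.1% of all genes. All 10 mitosis genes with a CHR also held CCAAT, a pair found in 7.97% of all genes. The windows of both kinds are richer in G and C than most, with a median of 57.5% for replication and 58.0% for mitosis genes against 52.7% over all windows. A match is a string of letters and was not tested as a bound site.

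Library facts that bear on these genes are as follows. The sum of FPKM was 569055 to 576093 in Con and 476127 to 519355 in the busulfan libraries. IMA10 replicate 3 stands apart from its group. Across genes its log2 values correlated at a mean of 0.923 with Con and of 0.656 with the other IMA10 libraries. Since all libraries share 1 estimate of the spread, it widens the error in every comparison, so counts are given with and without it. Between Sa and Con the median log2 change of all genes was 0.60. Median-of-ratios scaling moved it by -0.63 and quantile normalization by -0.41, so group medians are also given relative to the median of all genes. Read depth is unknown.

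In Sa against Con, several genes that license or start replication rose, while Rfc2 fell. Of the 22 replication genes 9 rose and 1 fell, and of the 14 mitosis genes 3 rose and 0 fell, also at an unadjusted p under 0.05 (limma with Benjamini-Hochberg adjustment over all genes, adjusted p under 0.05). Over all 15472 genes 71.2% were called, 52.0% as higher and 19.2% as lower, so these counts lie below the shares of all genes and are no result about the genes as a set. Relative to the median change of all genes, the replication genes had a median of -0.32 and the mitosis genes of -1.10 (log2). The same medians were -0.44 and -1.21 with median-of-ratios scaling and -0.32 and -1.03 with quantile normalization.

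**Figure D1:**
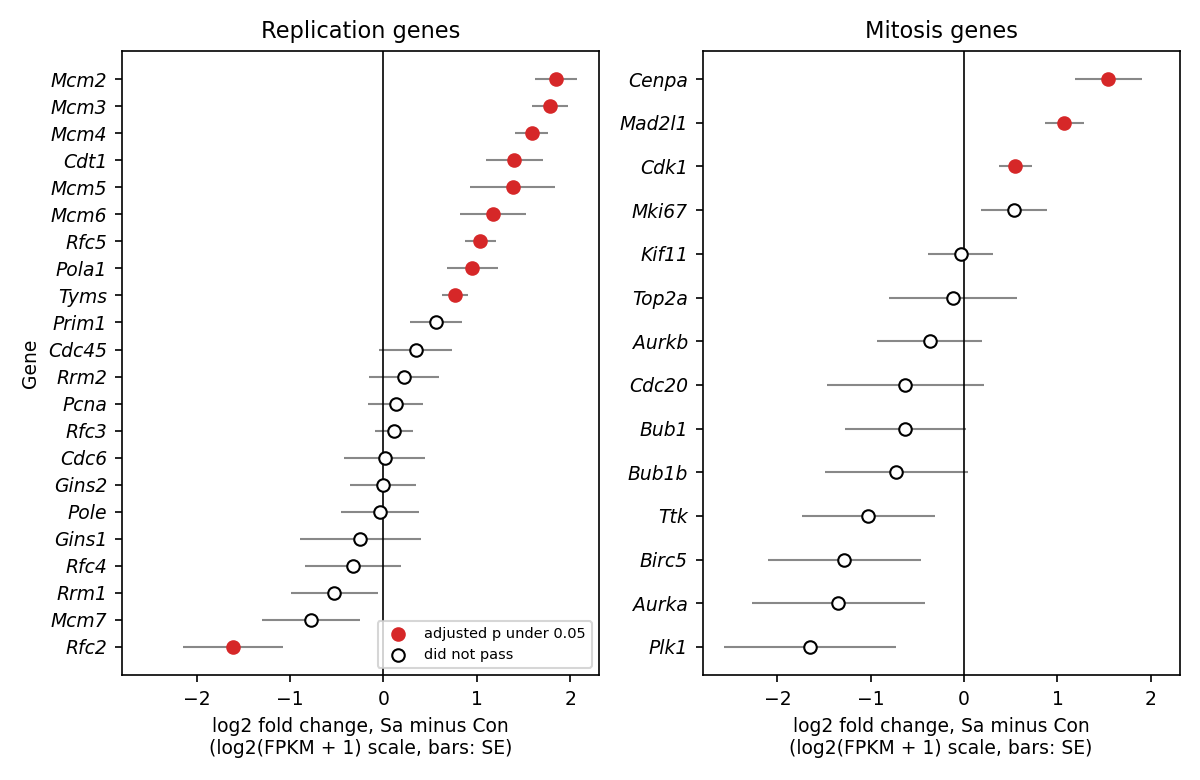
Log2 fold change of each gene in Sa against Con on the log2(FPKM + 1) scale (x axis), with bars of 1 SE, for the 22 replication genes (left) and the 14 mitosis genes (right), filled where the limma adjusted p is under 0.05. Replication genes run from -1.61 for Rfc2 to 1.85 for Mcm2, and mitosis genes from -1.65 for Plk1 to 1.54 for Cenpa.

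Of the 6 subunits of the MCM ring, the replicative helicase, Mcm2 to Mcm6 rose. Mcm2 (Gene ID 17216) had 4.34, 4.75 and 4.38 FPKM in Con, 22.4, 18.9 and 15.7 in Sa, 12.03, 19.7 and 11.5 in IMC, and 7.76, 10.0 and 10.5 in IMA10. Every busulfan library lay above every Con library, and Sa lay above IMA10 with no overlap. The log2 change of Mcm2 in Sa against Con was 1.85 ± 0.23 (SE, limma adjusted p = 0.00032). Mcm3 (Gene ID 17215) had 8.0, 8.12 and 7.5 FPKM in Con, 35.7, 28.7 and 25.4 in Sa, 23.9, 29.6 and 21.5 in IMC, and 21.3, 24.99 and 17.4 in IMA10. Its values were again higher in all 9 busulfan libraries than in Con, with a log2 change of 1.79 ± 0.19 (SE, limma adjusted p = 0.000231). Mcm4 (Gene ID 17217) had 2.55, 2.47 and 2.42 FPKM in Con, 9.73, 10.3 and 8.47 in Sa, 7.54, 9.05 and 6.94 in IMC, and 4.58, 7.0 and 5.87 in IMA10, and its change was 1.59 ± 0.18 (SE, limma adjusted p = 0.000247). All 3 kept their call with either other scaling and without any 1 library.

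Mcm5 and Mcm6 rose less evenly. Mcm5 (Gene ID 17218) had 6.31, 6.85 and 6.15 FPKM in Con, 25.3, 16.6 and 14.7 in Sa, 9.44, 18.7 and 9.0 in IMC, and 2.7, 8.27 and 13.5 in IMA10. All Sa and IMC libraries exceeded Con, while IMA10 replicate 1 lay below it. Its change in Sa was 1.38 ± 0.46 (SE, limma adjusted p = 0.0196), which did not pass with median-of-ratios scaling (adjusted p = 0.21, limma), with quantile normalization (0.109), without Con replicate 3 (0.0517) or without Sa replicate 1 (0.0702). Mcm6 (Gene ID 17219) had 9.8, 11.98 and 9.77 FPKM in Con, 30.7, 22.5 and 22.2 in Sa, 18.8, 22.7 and 14.2 in IMC, and 5.86, 9.63 and 20.03 in IMA10. It changed by 1.17 ± 0.36 (SE, limma adjusted p = 0.0135), and did not pass with median-of-ratios scaling (adjusted p = 0.323, limma) or quantile normalization (0.069).

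The sixth subunit, Mcm7 (Gene ID 17220), went the other way in level. It had 105, 101 and 95.3 FPKM in Con, 78.6, 56.1 and 44.5 in Sa, 41.9, 56.1 and 30.4 in IMC, and 19.3, 28.97 and 108 in IMA10. The Sa and IMC libraries all lay below Con, and IMA10 ranged from far below to above it. Its log2 change in Sa was -0.78 ± 0.52 and did not pass (limma adjusted p = 0.194). The same change passed without IMA10 replicate 3 (adjusted p = 0.0153, limma), as it did with only the 2 groups in the fit (0.0063) and with median-of-ratios scaling (0.0252), and over all alternatives the adjusted p ranged from 0.0063 to 0.397.

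The products of these 6 genes form a ring with 1 copy of each, yet their transcripts were not even in any group. In Con the FPKM of Mcm7 was 16.9, 14.9 and 15.8 times the mean of Mcm2 to Mcm6. In Sa the ratio was 3.18, 2.89 and 2.57, in IMC 2.92, 2.81 and 2.41, and in IMA10 2.29, 2.42 and 8.06. No busulfan library reached the Con range, and IMA10 replicate 3 came nearest. A ratio within a library is free of the scaling between libraries and shows unequal change, not which gene changed. Mcm7 overlaps Ap4m1, whose own mean FPKM was 18.4 ± 0.18 in Con and 11.3 ± 0.81 in Sa (SD, n = 3), and with no strand stated, reads of overlapping genes cannot be told apart.

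The clamp loader showed the same kind of contrast. Rfc2 (Gene ID 19718), a small subunit of RFC, had 145, 139 and 139 FPKM in Con, 58.9, 43.6 and 36.6 in Sa, 37.96, 48.1 and 29.1 in IMC, and 18.4, 26.0 and 114 in IMA10. All busulfan libraries lay below Con, IMA10 replicate 3 included. Its change in Sa was -1.61 ± 0.54 (SE, limma adjusted p = 0.0207), with both other scalings also calling it lower. The call did not hold without Con replicate 1 (adjusted p = 0.0521, limma), Sa replicate 2 (0.0529) or Sa replicate 3 (0.0666). The ratio of Rfc2 to the mean of Rfc3, Rfc4 and Rfc5 was 9.31, 8.85 and 9.45 in Con, 2.93, 2.86 and 2.84 in Sa, 2.90, 3.09 and 2.62 in IMC, and 2.22, 2.47 and 5.28 in IMA10. The Sa ratios lay within a narrow band although the levels of Rfc2 itself ranged from 36.6 to 58.9 FPKM there.

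Among the other RFC subunits only Rfc5 passed the test in Sa. Rfc5 (Gene ID 72151) had 4.82, 4.25 and 3.66 FPKM in Con, 10.1, 10.1 and 9.03 in Sa, 7.54, 9.21 and 7.3 in IMC, and 6.13, 6.6 and 8.13 in IMA10, so every busulfan library exceeded Con. It changed by 1.04 ± 0.17 (SE, limma adjusted p = 0.000464), but did not pass with median-of-ratios scaling (adjusted p = 0.097, limma) or quantile normalization (0.102). Rfc3 had 15.3, 16.3 and 13.5 FPKM in Con, 19.7, 15.3 and 14.4 in Sa, 15.8, 17.3 and 14.8 in IMC, and 12.9, 13.3 and 20.7 in IMA10, with groups that overlap. Rfc4 had 26.6, 26.6 and 27.1 FPKM in Con, 30.5, 20.2 and 15.2 in Sa, 15.95, 20.3 and 11.2 in IMC, and 5.92, 11.7 and 35.8 in IMA10. Its values in IMA10 replicates 1 and 2 are far under Con and that of replicate 3 is above it. Rfc4 overlaps the more abundant Eif4a2, at 56.3 ± 2.55 FPKM in Con and 88.9 ± 5.84 in Sa. Pcna, the clamp itself, had 50.1, 51.2 and 47.4 FPKM in Con, 63.9, 54.4 and 46.1 in Sa, 51.6, 49.1 and 40.2 in IMC, and 27.8, 42.6 and 72.96 in IMA10, and Sa overlapped Con.

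**Figure D2:**
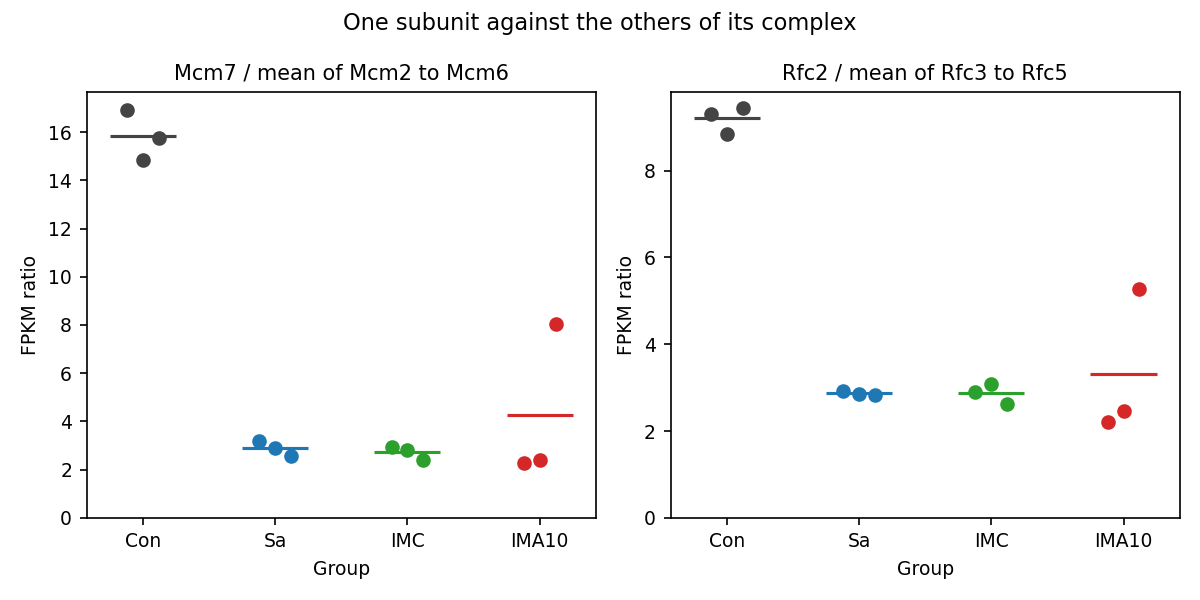
FPKM of Mcm7 divided by the mean of Mcm2 to Mcm6 (left y axis) and of Rfc2 divided by the mean of Rfc3 to Rfc5 (right y axis), with 1 point per library and a line at the group mean, n = 3. The 3 Con libraries lie at 14.9 to 16.9 and 8.85 to 9.45, and all 9 busulfan libraries lie below them.

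The licensing factor Cdt1 rose and its partner Cdc6 did not pass. Cdt1 (Gene ID 67177) had 1.62, 1.86 and 1.39 FPKM in Con, 8.59, 5.36 and 4.43 in Sa, 3.33, 5.28 and 3.5 in IMC, and 1.24, 2.98 and 3.6 in IMA10. All Sa and IMC libraries exceeded Con, and IMA10 replicate 1 lay under the Con range. Its change in Sa was 1.40 ± 0.30 (SE, limma adjusted p = 0.00209), called with both other scalings. Cdc6 had 5.86, 5.73 and 6.12 FPKM in Con, 7.83, 5.82 and 4.6 in Sa, 3.52, 5.39 and 2.75 in IMC, and 0.95, 1.93 and 6.85 in IMA10, with Sa on both sides of Con, IMC below it, and the lowest value in IMA10 replicate 1.

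The factors that complete the helicase overlapped or nearly so between Sa and Con. Cdc45 had 15.4, 15.2 and 15.5 FPKM in Con, 25.5, 17.8 and 16.9 in Sa, 13.7, 17.9 and 10.0 in IMC, and 6.64, 9.68 and 24.3 in IMA10. The 3 Sa libraries were above Con without passing the test, and IMC was on both sides. Gins1 had 16.01, 12.3 and 13.8 FPKM in Con, 15.3, 12.5 and 8.11 in Sa, 10.4, 11.5 and 6.67 in IMC, and 1.8, 5.55 and 26.03 in IMA10, and Gins2 had 15.4, 15.3 and 15.8 FPKM in Con, 19.2, 14.5 and 13.2 in Sa, 12.9, 14.96 and 9.82 in IMC, and 6.75, 9.45 and 22.3 in IMA10. For both GINS genes Sa overlapped Con, the IMC libraries were below it, and IMA10 ran from the lowest to the highest value of all. Cdc45 overlaps Ufd1 (35.6 ± 1.02 FPKM in Con, 40.3 ± 1.23 in Sa) and Gins2 overlaps Gse1 (2.32 ± 0.13 and 4.61 ± 0.55).

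Of the polymerase genes Pola1, the catalytic subunit of polymerase alpha, rose from a very low level. Pola1 (Gene ID 18968) had 0.13, 0.19 and 0.16 FPKM in Con, 0.99, 1.95 and 0.93 in Sa, 1.53, 1.2 and 1.53 in IMC, and 1.27, 1.87 and 0.3 in IMA10. All busulfan libraries exceeded Con, and IMA10 replicate 3 was the nearest to it. Pola1 reached 1 FPKM in 6 libraries, all of them busulfan libraries, so it passed the filter on low values through the groups where it is high, and its calls here and below carry no weight of their own. The log2 change was 0.95 ± 0.27 (SE, limma adjusted p = 0.00907), on a scale that understates changes at such levels, and it did not pass with quantile normalization (adjusted p = 0.119, limma). Prim1, the catalytic primase, had 4.89, 4.07 and 3.84 FPKM in Con, 8.14, 6.46 and 5.82 in Sa, 5.43, 7.11 and 3.98 in IMC, and 2.86, 5.18 and 6.71 in IMA10, with all Sa libraries above Con and no call. Pole, the leading-strand polymerase, had 12.96, 13.2 and 13.5 FPKM in Con, 17.9, 11.7 and 10.2 in Sa, 9.5, 13.2 and 7.5 in IMC, and 3.58, 6.14 and 15.9 in IMA10, on both sides of Con in Sa.

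In the supply of DNA precursors, thymidylate synthase rose. Tyms (Gene ID 22171) had 1.73, 1.74 and 1.7 FPKM in Con, 4.02, 3.7 and 3.24 in Sa, 3.37, 3.36 and 3.03 in IMC, and 2.79, 3.23 and 2.48 in IMA10. Every busulfan library exceeded Con, with a change in Sa of 0.77 ± 0.14 (SE, limma adjusted p = 0.000744) that did not pass with median-of-ratios scaling (adjusted p = 0.139, limma) or quantile normalization (0.578). Rrm1, the large subunit of ribonucleotide reductase, had 47.8, 44.6 and 47.9 FPKM in Con, 37.7, 31.8 and 27.7 in Sa, 28.8, 31.8 and 21.2 in IMC, and 11.7, 19.2 and 61.6 in IMA10. Sa and IMC lay below Con, and the change in Sa was -0.53 ± 0.46 (SE), which did not pass (limma adjusted p = 0.317) and did without IMA10 replicate 3 (0.0286, in a range over all alternatives of 0.00465 to 0.501). Rrm2, the small subunit, had 8.48, 7.73 and 7.91 FPKM in Con, 12.3, 8.41 and 8.26 in Sa, 6.77, 11.6 and 5.95 in IMC, and 2.7, 4.15 and 9.97 in IMA10, overlapping Con in Sa. The ratio of Rrm1 to Rrm2 was 5.64 to 6.06 in Con, 3.08 to 3.78 in Sa and 2.74 to 4.25 in IMC, with IMA10 at 4.32, 4.63 and 6.18.

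The 3 mitosis genes that rose in Sa were Cenpa, Mad2l1 and Cdk1. Cenpa (Gene ID 12615), the histone H3 variant of centromeres, had 2.94, 1.9 and 1.24 FPKM in Con, 10.8, 7.57 and 5.29 in Sa, 3.71, 7.67 and 4.49 in IMC, and 2.04, 4.09 and 5.25 in IMA10. Sa and IMC lay above Con, and IMA10 overlapped it. Its change in Sa was 1.54 ± 0.36 (SE, limma adjusted p = 0.00326), called with both other scalings. Mad2l1 (Gene ID 56150), the checkpoint protein that inhibits Cdc20, had 7.65, 8.11 and 7.77 FPKM in Con, 22.8, 17.8 and 13.3 in Sa, 12.7, 14.6 and 12.5 in IMC, and 8.96, 12.7 and 12.8 in IMA10, so every busulfan library exceeded Con. Its change was 1.07 ± 0.21 (SE, limma adjusted p = 0.00123) and did not pass with median-of-ratios scaling (adjusted p = 0.154, limma). Cdk1 (Gene ID 12534), the kinase that starts mitosis, had 14.1, 13.9 and 13.3 FPKM in Con, 23.2, 19.1 and 19.6 in Sa, 20.1, 21.9 and 16.4 in IMC, and 16.5, 18.3 and 23.9 in IMA10. All busulfan libraries exceeded Con, with a change in Sa of 0.55 ± 0.18 (SE, limma adjusted p = 0.0185). With median-of-ratios scaling its sign turned, to -0.21, and the call was lost there, with quantile normalization (adjusted p = 0.565, limma), without Con replicate 3 (0.0564) and without Sa replicate 1 (0.0686).

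The abundant kinases and their partners had lower values in Sa but did not pass. Plk1 (Gene ID 18817), a polo-like kinase of mitotic entry and chromosome segregation, had 99.4, 87.1 and 85.9 FPKM in Con, 37.7, 27.9 and 21.4 in Sa, 27.1, 36.9 and 12.7 in IMC, and 3.27, 9.25 and 102 in IMA10. Aurka (Gene ID 20878), the Aurora kinase of the spindle poles, had 149, 134 and 142 FPKM in Con, 69.3, 56.9 and 41.95 in Sa, 51.01, 72.1 and 22.3 in IMC, and 6.63, 19.6 and 187 in IMA10. For both, Sa and IMC lay below Con with no overlap, IMA10 replicates 1 and 2 were lower still, and IMA10 replicate 3 exceeded Con. The log2 changes in Sa were -1.65 ± 0.92 for Plk1 and -1.35 ± 0.93 for Aurka (SE), with adjusted p = 0.127 and 0.205 (limma). Both passed without IMA10 replicate 3, at adjusted p = 0.00317 and 0.0155 (limma). Over all alternatives the adjusted p ranged from 0.000101 to 0.252 for Plk1 and from 0.000192 to 0.358 for Aurka. Aurka overlaps Cstf1, which had 76.8 ± 5.21 FPKM in Con and 38.1 ± 6.39 in Sa.

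The chromosomal passenger genes differed from each other. Birc5 (Gene ID 11799), or survivin, had 81.6, 70.4 and 79.4 FPKM in Con, 40.9, 31.5 and 23.2 in Sa, 26.3, 35.3 and 13.8 in IMC, and 4.43, 10.8 and 89.8 in IMA10. The pattern over libraries was that of Plk1, and the change in Sa was -1.28 ± 0.82 (SE, limma adjusted p = 0.175, with 0.00733 without IMA10 replicate 3 and a range of 0.000424 to 0.332 over all alternatives). Aurkb, the kinase of the same complex, had 9.15, 7.48 and 9.45 FPKM in Con, 8.23, 6.75 and 4.82 in Sa, 5.5, 7.43 and 3.84 in IMC, and 1.3, 2.93 and 14.1 in IMA10, and Sa overlapped Con. Aurka was 16.3, 17.9 and 15.01 times as high as Aurkb in Con and 8.42, 8.43 and 8.70 times in Sa. In IMC the ratio was 9.28, 9.70 and 5.80, and in IMA10 5.10, 6.70 and 13.3.

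Of the checkpoint genes other than Mad2l1 none passed in Sa. Ttk (Gene ID 22137), the kinase Mps1, had 14.2, 16.3 and 17.8 FPKM in Con, 8.64, 9.17 and 4.97 in Sa, 7.88, 7.83 and 3.37 in IMC, and 0.72, 4.23 and 19.1 in IMA10. Sa lay below Con, with a change of -1.02 ± 0.71 (SE, limma adjusted p = 0.207, with 0.0399 without IMA10 replicate 3 and a range of 0.00235 to 0.408 over all alternatives). Bub1 had 16.7, 17.3 and 17.03 FPKM in Con, 13.4, 12.7 and 6.98 in Sa, 10.9, 11.2 and 4.77 in IMC, and 1.17, 6.14 and 18.3 in IMA10, and Bub1b had 33.5, 33.1 and 32.8 FPKM in Con, 26.7, 19.3 and 14.6 in Sa, 14.2, 18.8 and 8.28 in IMC, and 2.1, 7.04 and 44.9 in IMA10. Both kept the order of Con above Sa with no overlap. Cdc20 (Gene ID 107995), which activates the anaphase-promoting complex, had 114, 104 and 101 FPKM in Con, 97.8, 66.1 and 49.5 in Sa, 47.3, 69.6 and 28.2 in IMC, and 6.57, 25.04 and 147 in IMA10. Its change in Sa was -0.63 ± 0.84 (SE, limma adjusted p = 0.507). Over all alternatives the limma adjusted p of Cdc20 ranged from 0.0321, with only the 2 groups fitted, to 0.733. Cdc20 overlaps Elovl1 (2.12 ± 0.48 FPKM in Con, 23.2 ± 5.46 in Sa).

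The remaining mitosis genes overlapped between Sa and Con. Top2a, the topoisomerase that untangles chromosomes, had 24.4, 29.8 and 29.7 FPKM in Con, 32.8, 29.3 and 17.3 in Sa, 21.7, 25.4 and 11.2 in IMC, and 2.97, 13.2 and 40.4 in IMA10. Mki67, a surface protein of mitotic chromosomes used as a marker of cycling cells, had 1.63, 2.55 and 2.27 FPKM in Con, 4.47, 3.92 and 2.45 in Sa, 2.85, 3.59 and 1.57 in IMC, and 0.43, 1.68 and 2.66 in IMA10. Kif11, the motor that separates the spindle poles, had 2.63, 3.02 and 3.59 FPKM in Con, 3.31, 3.86 and 1.97 in Sa, 2.77, 2.89 and 1.73 in IMC, and 0.71, 2.16 and 3.85 in IMA10. In all 3 the lowest value of the 12 libraries was in IMA10 replicate 1.

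**Figure D3:**
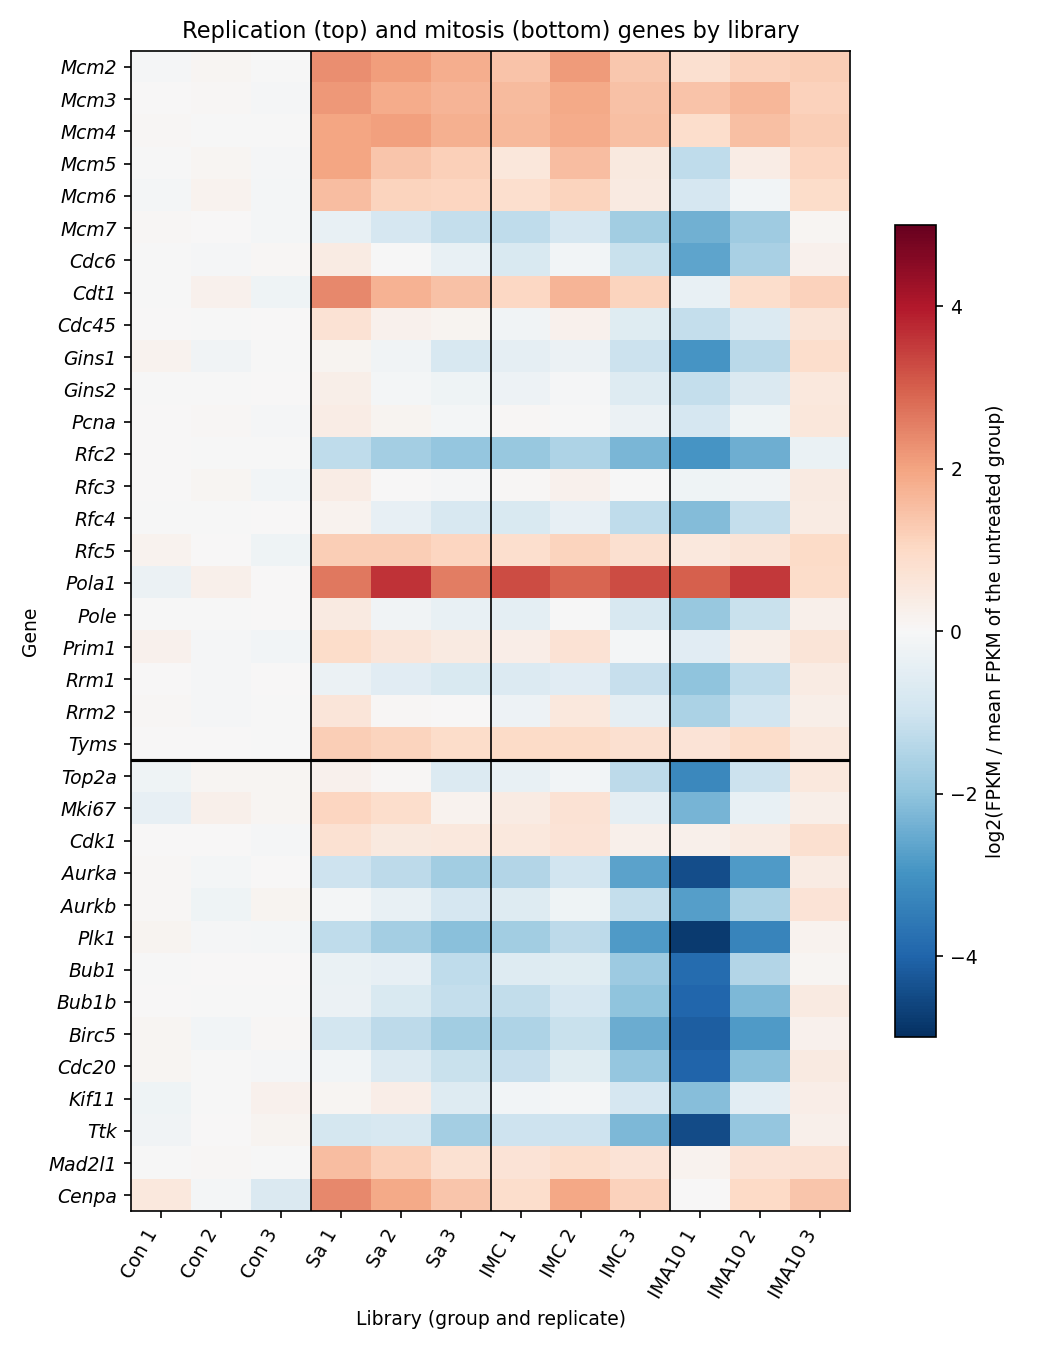
Each cell is the log2 ratio of a gene's FPKM in a library to its Con mean (colour), for the 22 replication genes above the line and the 14 mitosis genes below it, with 1 column per library. Mcm2 to Mcm4, Rfc5, Pola1 and Tyms are above the Con mean in all 9 busulfan libraries, and IMA10 replicate 1 is the lowest busulfan library for 32 of the 36 genes.

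Counted by overlap alone, the 3 Sa libraries lay above the 3 Con libraries for 11 of 22 replication genes and below them for 3, against 56.9% and 31.3% of all genes. For the mitosis genes the counts were 3 above and 7 below, of 14. The 7 below were Aurka, Plk1, Bub1, Bub1b, Birc5, Cdc20 and Ttk, none of which passed the test with all libraries. When IMA10 replicate 3 was left out, 10 replication genes rose and 3 fell (Mcm7, Rfc2 and Rrm1), and 3 mitosis genes rose and 4 fell (Aurka, Plk1, Birc5 and Ttk), while 55.7% of all genes were called higher and 30.0% lower. Prim1 was the replication gene that the fit without that library added to those that rose. With median-of-ratios scaling 5 replication genes rose and 4 fell, and 1 mitosis gene rose and 3 fell, against 37.7% and 39.2% of all genes. The genes called higher under all 3 scalings were Mcm2, Mcm3, Mcm4, Cdt1 and Cenpa, and the gene called lower was Rfc2.

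Set by promoter letters, 5 of the 8 replication genes with an E2F match rose in Sa and 0 fell, from -0.78 for Mcm7 to 1.79 for Mcm3, with Pola1 among the 5. Of the 10 mitosis genes with a CHR match 2 rose (Cdk1 and Cenpa) and 0 fell, from -1.65 for Plk1 to 1.54 for Cenpa. Of all genes 52.0% were called higher and 19.2% lower.

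Replication and mitosis genes can be set against each other within a library. In Con the mean log2(FPKM + 1) was 3.54, 3.52 and 3.47 for the replication genes and 4.32, 4.31 and 4.32 for the mitosis genes, so mitosis genes stood higher by 0.78 to 0.85, and this difference moves with the scaling since 1 is added to each FPKM. In Sa the replication mean was 4.24, 3.93 and 3.71 and the mitosis mean 4.35, 4.10 and 3.62. In IMC the means were 3.62, 3.93 and 3.37 against 3.79, 4.10 and 3.14. The mitosis genes thus stood above the replication genes in 2 of 3 libraries of each of these groups, and by less than in Con in all 6. In IMA10 the replication mean was 2.72, 3.28 and 4.05, and the mitosis mean 1.96, 3.11 and 4.75.

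**Figure D4:**
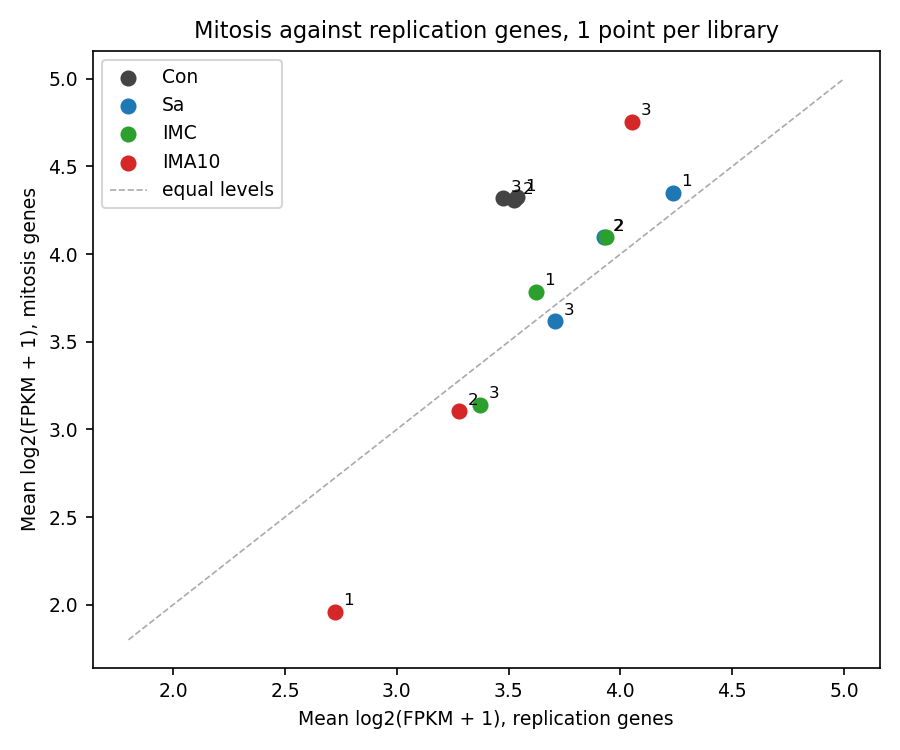
Mean log2(FPKM + 1) of the 22 replication genes (x axis) against that of the 14 mitosis genes (y axis), with 1 point per library marked by its replicate number and a dashed line of equal levels. The Con libraries and IMA10 replicate 3 lie well above the line, and Sa replicate 3, IMC replicate 3 and IMA10 replicates 1 and 2 lie below it.

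In sums of FPKM, the mitosis genes held 1.12, 1.07 and 1.12 times as much as the replication genes in Con. The ratio was 0.737, 0.749 and 0.639 in Sa, 0.743, 0.792 and 0.534 in IMC, and 0.330, 0.530 and 1.17 in IMA10. All 6 libraries of Sa and IMC lay below Con. IMA10 replicate 1 was lowest of the 12 libraries and replicate 3 highest. Such sums weigh the abundant genes most. In Con the means were 141.6 FPKM for Aurka, 106.5 for Cdc20, 90.8 for Plk1 and 77.2 for Birc5 among the mitosis genes. Among the replication genes they were 141.2 for Rfc2 and 100.6 for Mcm7. The median replication gene stood at 159%, 113% and 107% of its Con mean in the Sa libraries, and at 49.6%, 87.4% and 152% in the IMA10 libraries. The median mitosis gene stood at 93.2%, 76.1% and 51.0% in Sa and at 8.75%, 34.9% and 134% in IMA10.

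The genes also shared an order of libraries within the busulfan groups. Sa replicate 1 was the highest of its group for 31 of 36 genes and Sa replicate 3 the lowest for 35. IMC replicate 2 was the highest of its group for 32 and IMC replicate 3 the lowest for 33. In IMA10 replicate 3 was the highest for 32 and replicate 1 the lowest for 33. In Con no library was the highest for more than 14 genes. IMA10 replicate 3 lay above all Con libraries for 21 of 22 replication genes (the exception is Rfc2) and for all 14 mitosis genes. Shares over all genes were not computed for these counts or for the order of libraries. Neither is therefore shown to be particular to these genes. The highest value over the lowest within a group had a median of 1.09 in Con, 1.47 in Sa, 1.63 in IMC and 3.54 in IMA10 for replication genes. For mitosis genes it was 1.16, 1.83, 2.28 and 14.6. Plk1 spread the most in IMA10, at 31.3 times, and Mad2l1 the least of the mitosis genes, at 1.43 times.

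Levels of germ cell and somatic markers moved with these libraries. In bulk tissue, fewer cells of a type and less RNA per cell cannot be told apart. The summed FPKM of 21 early meiotic prophase markers was 762 to 883 in Con, 586, 457 and 283 in Sa, 348, 409 and 198 in IMC, and 55.0, 231 and 786 in IMA10, so the order of libraries within each busulfan group was that of most replication and mitosis genes. That of 15 pachytene spermatocyte markers was 8787 to 9205 in Con, 1652 to 3075 in Sa, 982 to 2373 in IMC and 284, 909 and 8247 in IMA10. The 13 differentiating spermatogonia markers summed to 632 to 672, 315 to 536, 232 to 447 and 115, 238 and 806, and the 15 undifferentiated spermatogonia markers to 53.7 to 57.7, 189 to 228, 171 to 218 and 169, 182 and 111. The sums of 11 round spermatid markers were 3062 to 3337 in Con, 186 to 422 in Sa, 115 to 253 in IMC and 31.0, 85.7 and 1155 in IMA10, and those of 14 elongating spermatid markers were 46960 to 49460, 470 to 2749, 284 to 601 and 109, 204 and 5134. Within IMA10 the sum of the undifferentiated list was lowest in replicate 3, as was that of the Sertoli cell list below. The sums of the other germ cell lists were highest in that library. Whether the undifferentiated sums come from germ cells alone was not tested. Lhx1, Nanos2, Calm4 and Izumo1 were listed at 0 in some libraries.

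Most somatic lists had higher sums in Sa and IMC than in Con, and those of lymphocytes, epididymis and adipocytes had lower ones. The 20 Sertoli cell markers summed to 660 to 768 FPKM in Con, 10300 to 12750 in Sa, 12960 to 15420 in IMC, and 19810, 15870 and 3370 in IMA10. The 11 Leydig cell markers summed to 688 to 740, 4786 to 9447, 4683 to 14240, and 7469, 7629 and 2026. Sums of 8 myoid, 8 endothelial and 10 macrophage markers were 346 to 374, 13.0 to 16.2 and 34.4 to 42.5 in Con, 750 to 1082, 68.0 to 108 and 227 to 339 in Sa, 811 to 927, 62.8 to 85.2 and 250 to 405 in IMC, and 325 to 991, 23.1 to 84.1 and 76.9 to 305 in IMA10. The 9 lymphocyte markers summed to 10.1 to 10.99 in Con, 2.08 to 3.6 in Sa, 2.21 to 5.41 in IMC and 1.56 to 3.34 in IMA10. The 4 epididymis markers in the table summed to 4.12 to 4.49, 1.34 to 1.75, 0.56 to 1.67 and 0.16 to 5.28, and the 6 adipocyte markers to 13.6 to 14.8, 6.37 to 9.14, 5.68 to 5.75 and 4.12 to 6.24, with Cd3g, Cd79a, Cd79b, Ms4a1, Nkg7, Rnase9, Defb20, Crisp1, Lep, Cidec and Retn at 0 in some. The 6 red blood cell markers summed to 37.0 to 50.4 in Con, 205 to 315 in Sa, 224 to 273 in IMC and 74.4 to 311 in IMA10, with Hbb-bs, Hbb-bt and Hba-a2 at 0 in some. The part of these shifts in the results for replication and mitosis genes was not tested.

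In IMC against Con, which shares its controls with the comparison above, several genes of the helicase and of DNA synthesis rose. Of the 22 replication genes 7 rose (Mcm2, Mcm3, Mcm4, Cdt1, Rfc5, Pola1 and Tyms) and 2 fell (Mcm7 and Rfc2), and of the 14 mitosis genes 3 rose (Cdk1, Mad2l1 and Cenpa) and 0 fell, also at an unadjusted p under 0.05. Over all genes limma called 74.1%, 50.8% as higher and 23.3% as lower. Mcm2 changed by 1.45 ± 0.23 (SE, limma adjusted p = 0.000367), Mcm3 by 1.54 ± 0.19 (SE, limma adjusted p = 0.000308) and Mcm4 by 1.34 ± 0.18 (SE, limma adjusted p = 0.000308). Rfc2 changed by -1.88 ± 0.54 (SE, limma adjusted p = 0.00964). These 4 were called under all 3 scalings and without any 1 library. Mcm7 changed by -1.26 ± 0.52 (SE, limma adjusted p = 0.0495), a call that 10 of the 12 single-library omissions ended, leaving it only without IMA10 replicate 1 or 3, and quantile normalization ended it too (0.0857).

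The other calls in IMC were less firm. Cdt1 changed by 0.92 ± 0.30 (SE, limma adjusted p = 0.0186), which did not pass with median-of-ratios scaling (adjusted p = 0.206, limma), quantile normalization (0.205), without Con replicate 3 (0.0592) or without IMC replicate 2 (0.0687). Cenpa changed by 1.04 ± 0.36 (SE, limma adjusted p = 0.0236) and Mad2l1 by 0.69 ± 0.21 (SE, limma adjusted p = 0.0137), and neither passed with median-of-ratios scaling (adjusted p = 0.205 and 0.893, limma) or quantile normalization (0.205 and 0.513). Cenpa also did not pass without Con replicate 2 (0.0579), Con replicate 3 (0.0884) or IMC replicate 2 (0.0885). Cdk1 changed by 0.46 ± 0.18 (SE, limma adjusted p = 0.0375), turned to -0.22 with median-of-ratios scaling, and did not pass with quantile normalization (0.644) or without Con replicate 1, 2 or 3, Sa replicate 2 or 3, or IMC replicate 1 or 2 (adjusted p from 0.052 to 0.121, limma). Pola1 changed by 1.06 ± 0.27 (SE, limma adjusted p = 0.00511) and kept its call in all alternatives that tested it, which leaves out the filter of 5 FPKM. Since Pola1 passed the filter on low values through the busulfan groups, this call carries no weight of its own. Rfc5 and Tyms changed by 0.78 ± 0.17 and 0.64 ± 0.14 (SE) and did not pass with median-of-ratios scaling (adjusted p = 0.389 and 0.285, limma) or quantile normalization (0.409 and 0.65).

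Plk1 and Birc5 had values of -1.91 ± 0.92 and -1.67 ± 0.82 (SE) in IMC against Con and did not pass (adjusted p = 0.0817 and 0.0852, limma). Leaving out IMA10 replicate 3, 8 replication genes rose and 4 fell, and 3 mitosis genes rose and 6 fell (Aurka, Plk1, Bub1b, Birc5, Cdc20 and Ttk), against 53.7% higher and 32.2% lower of all genes. Without IMA10 replicate 1, 9 and 2 replication genes and 3 and 3 mitosis genes rose and fell, against 51.3% and 28.1% of all genes. With median-of-ratios scaling 4 replication genes rose and 9 fell, and 0 mitosis genes rose and 6 fell, against 39.0% and 40.6% of all genes. By overlap, IMC lay above Con for 9 replication and 3 mitosis genes and below it for 7 and 8, with 55.1% and 33.2% of all genes above and below. Relative to all genes, the medians were -0.50 for replication and -1.28 for mitosis genes.

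In IMA10 against the same Con libraries, 6 replication genes rose (Mcm2, Mcm3, Mcm4, Rfc5, Pola1 and Tyms), 2 fell (Mcm7 and Rfc2), 1 mitosis gene rose (Cdk1) and 2 fell (Plk1 and Birc5). Of all genes limma called 71.6%, 47.7% higher and 23.9% lower. The changes were 1.31 ± 0.19 (SE, limma adjusted p = 0.000916) for Mcm3, 0.95 ± 0.18 (SE, limma adjusted p = 0.0013) for Mcm4 and 0.92 ± 0.23 (SE, limma adjusted p = 0.00525) for Mcm2. Mcm2 did not pass with median-of-ratios scaling (adjusted p = 0.0899, limma) or quantile normalization (0.06). Rfc2 changed by -1.86 ± 0.54 (SE, limma adjusted p = 0.0114) and did not pass with only the 2 groups in the fit (0.0607). Rfc5, Tyms and Pola1 changed by 0.60 ± 0.17, 0.49 ± 0.14 and 0.81 ± 0.27 (SE). Pola1 did not pass without Con replicate 1 or 3 or IMA10 replicate 1 or 2 (adjusted p from 0.0543 to 0.0851, limma), and Rfc5 and Tyms did not with either other scaling.

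The mitosis genes in this comparison rest on how IMA10 replicate 3 is treated. Plk1 changed by -2.47 ± 0.92 (SE, limma adjusted p = 0.0345) and Birc5 by -2.12 ± 0.82 (SE, limma adjusted p = 0.0395), and both calls were lost when any 1 Con library was left out and without IMA10 replicate 1 or 2. That of Birc5 was also lost without any 1 Sa library and without IMC replicate 1. Leaving out IMA10 replicate 3, the change of Plk1 was -3.79 and that of Birc5 -3.29, and leaving out IMA10 replicate 1 they were -1.49 and -1.25. Aurka was at -2.20 ± 0.93 (SE) and did not pass (limma adjusted p = 0.0533), and at -3.50 it passed without IMA10 replicate 3 (6.93e-05). Cdk1 changed by 0.46 ± 0.18 (SE, limma adjusted p = 0.0387) and turned to -0.067 with median-of-ratios scaling. Mcm7 changed by -1.32 ± 0.52 (SE, limma adjusted p = 0.0421). The calls of Cdk1 and Mcm7 were lost when any 1 Con library was left out, and also without IMC replicate 1, IMA10 replicate 2 or Sa replicate 2 or 3. That of Mcm7 was lost too without Sa replicate 1, IMC replicate 2 or IMA10 replicate 1, and its value ranged from -2.04 without IMA10 replicate 3 to -0.83 without IMA10 replicate 1. None of Plk1, Birc5, Cdk1 and Mcm7 passed with only the 2 groups in the fit (adjusted p = 0.112, 0.121, 0.131 and 0.12, limma), nor Cdk1 and Mcm7 with quantile normalization (0.3 and 0.0678).

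In a fit without IMA10 replicate 3, 6 replication genes rose and 11 fell in IMA10 against Con, and 1 mitosis gene rose and 10 fell, against 51.6% and 35.0% of all genes. The 11 were Mcm7, Cdc6, Cdc45, Gins1, Gins2, Pcna, Rfc2, Rfc4, Pole, Rrm1 and Rrm2. The 10 were Top2a, Aurka, Aurkb, Plk1, Bub1, Bub1b, Birc5, Cdc20, Kif11 and Ttk. With median-of-ratios scaling and all libraries, 3 and 8 replication genes and 0 and 9 mitosis genes rose and fell, against 36.9% and 37.1% of all genes. By overlap, IMA10 lay above Con for 6 replication and 2 mitosis genes and below it for 1 and 0, with 49.3% and 18.1% of all genes. Relative to all genes the medians were -0.49 for replication and -1.68 for mitosis genes, -0.94 and -2.54 without IMA10 replicate 3, and -0.27 and -0.90 without IMA10 replicate 1.

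**Figure D5:**
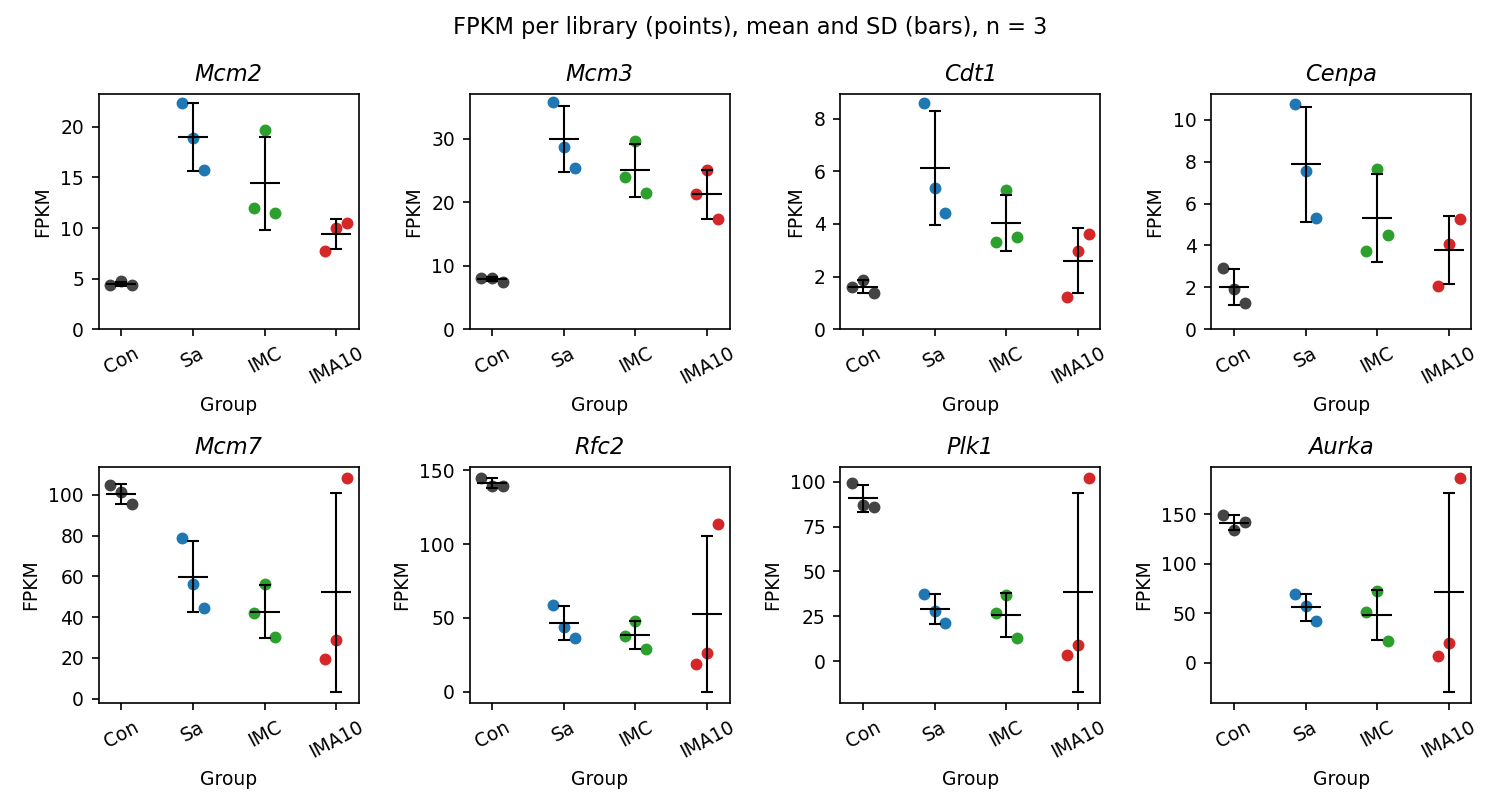
FPKM of 8 genes in each library (points), with the group mean and SD (bars), n = 3, for Con, Sa, IMC and IMA10. Mcm2 and Mcm3 are above Con in all busulfan libraries, and Mcm7, Plk1 and Aurka show 1 IMA10 library (replicate 3) above Con and the other two below the Sa group.

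The comparisons among the busulfan groups ask whether gut microbiota, or the donors' treatment, moved these genes. In IMC against Sa no replication and no mitosis gene passed in limma, 0 at an unadjusted p under 0.05, and 0.0% of all genes passed (134 at an unadjusted p under 0.05). The IMC and Sa libraries overlapped for all 36 genes, while 3.32% of all genes lay higher in IMC with no overlap and 6.02% lower. The medians were -0.29 for replication and -0.34 for mitosis genes, against -0.059 for all genes. The values of Mcm5 and Cdc20 were -0.61 ± 0.46 and -0.58 ± 0.84 (SE). Group means were 18.9 ± 5.63 FPKM in Sa and 12.4 ± 5.47 in IMC for Mcm5, and 71.1 ± 24.5 and 48.4 ± 20.7 for Cdc20 (SD, n = 3).

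In IMA10 against Sa no gene of the 36 passed with all libraries (limma), and 8 replication and 3 mitosis genes were lower at an unadjusted p under 0.05. Of all 15472 genes 0.0% passed, with 891 lower and 37 higher at an unadjusted p under 0.05. All 22 replication and all 14 mitosis genes had values under 0, which held for 21 and 13 with median-of-ratios scaling and for 19 and 13 with quantile normalization. The median of all genes was itself -0.195, and with these scalings it was 0.008 and 0.0236. The share of all genes with values under 0 was not computed, so these counts are not shown to be particular to the 36 genes. Mcm2 was at -0.94 ± 0.23 (SE, limma adjusted p = 0.628), with means of 19.0 ± 3.34 FPKM in Sa and 9.43 ± 1.47 in IMA10 (SD, n = 3). Mcm4 was at -0.63 ± 0.18, Mcm5 at -1.29 ± 0.46 and Mcm6 at -1.16 ± 0.36 (limma adjusted p = 0.64, 0.682 and 0.651). The IMA10 libraries lay below all Sa libraries for 8 of 22 replication genes (Mcm2 to Mcm6, Cdt1, Rfc5 and Tyms) and for 2 of 14 mitosis genes (Mad2l1 and Cenpa), against 7.17% of all genes. They lay above Sa for 0 genes, against 0.633%. For these 10 genes the order holds with IMA10 replicate 3 included, although that library was the highest of the 9 busulfan libraries for 10 of the 14 mitosis genes, Plk1 and Aurka among them.

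Without IMA10 replicate 3, 17 of 22 replication and 12 of 14 mitosis genes fell in IMA10 against Sa and 0 rose, while 24.7% of all genes fell and 7.38% rose. The replication genes that did not pass were Mcm3, Rfc3, Pola1, Prim1 and Tyms, and the mitosis genes were Cdk1 and Kif11. The changes were then -1.01 for Mcm2, -1.73 for Mcm5, -1.60 for Mcm6, -0.67 for Mad2l1, -1.13 for Cenpa, -2.14 for Plk1 and -2.31 for Cdc20 (limma adjusted p = 0.014, 0.0153, 0.0136, 0.0333, 0.0415, 0.0136 and 0.0138). The group then has 2 libraries, which lay apart for Plk1 (3.27 and 9.25 FPKM) and Cdc20 (6.57 and 25.04 FPKM). Without IMA10 replicate 1 in its place, 0 genes passed and Plk1 turned to 0.15. The medians were then -0.31 for replication and -0.00 for mitosis genes, against -0.151 for all genes.

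In IMA10 against IMC no gene of the 36 passed (limma), and 1 replication gene (Mcm2) and 0 mitosis genes were lower at an unadjusted p under 0.05. Of all 15472 genes 0.0% passed, with 292 lower and 36 higher at an unadjusted p under 0.05. Mcm2 was at -0.53 ± 0.23 and Mcm6 at -0.74 ± 0.36 (SE, both with a limma adjusted p = 0.9999). Mcm2 was also the gene whose IMA10 libraries all lay below the IMC libraries, against 2.88% of all genes. The medians were -0.21 for replication and -0.44 for mitosis genes, against -0.142 for all genes. The count of genes that passed was 0 without IMA10 replicate 3 too, against 0.0130% of all genes called lower there.

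Other genes of the same pathways, from lists by function, were tested in the same fit. Of 40 other replication genes, 19 rose and 2 fell in Sa against Con, with a median of 0.49, against 52.0% and 19.2% of all genes and their median of 0.60. Orc6, an origin recognition subunit, rose by 1.56 ± 0.21 (SE), from 5.58 ± 0.93 to 18.4 ± 1.58 FPKM (SD, n = 3). Tk1, the thymidine kinase of S phase, rose by 1.73 ± 0.26, and Rpa3, a subunit of the protein that coats single-stranded DNA, by 1.69 ± 0.27. Fen1, the nuclease that trims Okazaki fragments, changed by -1.01 ± 0.20, and Pold3, a subunit of polymerase delta, by -1.29 ± 0.44. In IMC 11 rose and 4 fell (50.8% and 23.3% of all genes), with Tk1 at 1.83 ± 0.26, and in IMA10 9 rose and 3 fell (47.7% and 23.9% of all genes), with Fen1 at -1.65 ± 0.20. The call of Pold3 in Sa was lost without Con replicate 2 or 3 or Sa replicate 2 or 3.

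Of 44 other mitosis genes 4 rose and 2 fell in Sa, with a median of -0.62, where 52.0% and 19.2% of all genes did. Racgap1, which acts in cytokinesis, rose by 0.95 ± 0.17 (SE), from 29.9 ± 1.67 to 58.7 ± 2.30 FPKM. Tpx2, the activator of Aurka on the spindle, was at 0.76 ± 0.15 and turned to -0.012 with median-of-ratios scaling, and the motor gene Kif4 was at 0.80 ± 0.19. The microtubule depolymerase gene Kif2c changed by -2.85 ± 0.80, from 128 ± 5.17 to 17.9 ± 7.36 FPKM, and Cdca2, which recruits a phosphatase to chromosomes, by -2.44 ± 0.77. In IMC 3 rose and 6 fell, and in IMA10 3 rose and 11 fell, with the shares of all genes as above. Without IMA10 replicate 3 the counts were 4 and 16 in Sa (55.7% and 30.0% of all genes), 3 and 27 in IMC (53.7% and 32.2%) and 3 and 37 in IMA10 (51.6% and 35.0%), and 35 of the 44 fell in IMA10 against Sa (24.7%). With median-of-ratios scaling Racgap1, Tpx2 and Kif4 did not pass in Sa (limma adjusted p = 0.33, 0.94 and 0.161), nor did Kif4 with quantile normalization (0.336). The call of Cdca2 in Sa was lost without Sa replicate 3 (limma adjusted p = 0.0525).

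Genes of meiotic division, of which 15 of 17 were tested, showed 2 that rose and 2 that fell in Sa, against 52.0% and 19.2% of all genes. Plk3 rose by 1.17 ± 0.19 (SE) and Ccnb3, a cyclin of meiosis, by 0.83 ± 0.23, while Eif4g3 changed by -1.01 ± 0.30 and Rec8, the meiotic cohesin, by -1.87 ± 0.62. Plk3 had 0.25 ± 0.04 FPKM in Con and 1.81 ± 0.099 in Sa (SD, n = 3). It passed the filter on low values through the busulfan groups, where it is high. Its calls against Con therefore carry no weight of their own. In IMC 2 rose and 4 fell (50.8% and 23.3% of all genes), and in IMA10 1 rose and 9 fell (47.7% and 23.9%). Without IMA10 replicate 3 the Sa counts were 2 and 9 (55.7% and 30.0% of all genes). Ccnb3 did not pass with median-of-ratios scaling (limma adjusted p = 0.241) or quantile normalization (0.349), and the call of Rec8 was lost without Con replicate 1 or Sa replicate 2 or 3. Of 20 tested E2F and DREAM regulators 12 rose and 0 fell in Sa, also 0 at an unadjusted p under 0.05, with a median of 0.95, against 52.0% and 19.2% of all genes and their median of 0.60. Nfyc, a subunit of the CCAAT-binding NF-Y, rose by 1.51 ± 0.16, Rbbp4, a MuvB subunit, by 1.496 ± 0.19, and Tfdp1, the dimer partner of E2F, by 1.12 ± 0.16. In IMC 12 rose and 1 fell (50.8% and 23.3% of all genes) and in IMA10 11 rose and 1 fell (47.7% and 23.9%).

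Among the busulfan groups none of the genes of these 4 lists passed with all libraries (limma). Melk, a kinase of cycling cells, had 6.67 ± 2.15 FPKM in Sa, 4.21 ± 2.38 in IMC and 2.41 ± 0.42 in IMA10 (SD, n = 3), with a value of -1.14 ± 0.30 in IMA10 against Sa (SE, limma adjusted p = 0.64). Rpa2 was at -0.79 ± 0.24 in the same comparison, and Tk1 at -0.71 ± 0.26 in IMA10 against IMC. Without IMA10 replicate 3, 25 of 40 other replication genes, 10 of 15 meiotic division genes and 6 of 20 E2F and DREAM regulators fell in IMA10 against Sa, and 1 of the regulators rose, against 24.7% and 7.38% of all genes.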

How the data were processed

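RNA from 12 testis libraries in 4 groups of 3 was sequenced, and groups and replicate numbers were taken from the labels. The authors deposited 1 table of FPKM values with 2 decimals, per the file headers. The aligner, counting program, strand setting, genome build and gene filter were not given in the sources used here. Each FPKM is divided by its library's total, so a fall in very abundant transcripts raises the FPKM of all others. No counts are held, so depth is unknown and no counting interval is given. Of the 20288 rows with a numeric Gene ID, 20141 were matched to symbols through a RefSeq gene table (GRCm38.p6) and 147 were not. That table was used for names and for neighbouring genes only. All sample columns were used.

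Values were analysed as log2(FPKM + 1), so fold changes of low genes are understated. The 15472 genes that reached 1 FPKM in 3 or more libraries were fitted together in limma 3.58.1 (R 4.3.3), with 1 mean per group, a variance trend, and Benjamini-Hochberg adjustment over all genes in each of the 6 comparisons. An adjusted p under 0.05 counts as a change, and errors are moderated standard errors for changes and SDs for levels. The procedure was tested on simulated data.

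Alternatives were median-of-ratios scaling, quantile normalization, a pseudocount of 0.1, a filter of 5 FPKM or none, a fit of the compared groups alone, a block for the replicate number, and leaving out each library in turn. The named genes are the 36 members and, from 4 further lists of genes by function (other replication, other mitosis, meiotic division, E2F and DREAM regulators), those with the smallest p, of which the text gives a part. The 15 lists of cell type markers were summed. The members and lists were chosen with earlier results of these data known, so counts over them are descriptions and no test of a list was made. Figures were drawn with matplotlib 3.10.9.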

Additional observations from a re-analysis of the deposited data

How the results depend on the processing

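Counts of genes that passed depend on scaling and on single libraries. Here each pair of numbers is genes that rose and genes that fell, first for replication and then for mitosis genes. In Sa against Con the counts of 9 and 1, 3 and 0 became 5 and 4, 1 and 3 with median-of-ratios scaling, 4 and 1, 2 and 2 with quantile normalization, and 9 and 3, 4 and 7 with only the 2 groups fitted. In IMC against Con the counts of 7 and 2, 3 and 0 became 4 and 9, 0 and 6 with median-of-ratios scaling, 4 and 2, 0 and 2 with quantile normalization, and 9 and 6, 3 and 8 with only the 2 groups fitted. The 2 replication genes that fell became 1 with a pseudocount of 0.1, no filter, a filter of 5 FPKM or the replicate block. In IMA10 against Con the counts of 6 and 2, 1 and 2 became 3 and 8, 0 and 9 with median-of-ratios scaling, 3 and 4, 0 and 5 with quantile normalization, and 3 and 0, 0 and 0 with only the 2 groups fitted. With no filter 1 replication and 1 mitosis gene fell, and with the replicate block 1 replication gene and 0 mitosis genes fell and 0 mitosis genes rose.

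Leaving out 1 library gave 8 to 10 and 0 to 3 replication genes and 2 to 3 and 0 to 4 mitosis genes in Sa against Con, 6 to 9 and 1 to 4, 1 to 3 and 0 to 6 in IMC against Con, and 5 to 6 and 1 to 11, 0 to 3 and 0 to 10 in IMA10 against Con. In IMA10 against Sa the genes that fell ranged from 0 to 17 and from 0 to 12, with the upper values without IMA10 replicate 3. The cause was not tested. The shares of all genes called higher and lower moved as well: with quantile normalization they were 36.8% and 29.2% in Sa, 39.4% and 31.8% in IMC and 39.0% and 28.4% in IMA10, and with only the 2 groups fitted 55.4% and 32.0%, 53.7% and 33.9%, and 38.7% and 13.1%. In IMC against Sa and IMA10 against IMC the counts were 0 under every alternative.

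Cdk1 turned negative with median-of-ratios scaling in all 3 comparisons with Con (-0.21, -0.22 and -0.067), as did Tpx2 in Sa (-0.012), and Plk1 in IMA10 against Sa ranged from -2.14 without IMA10 replicate 3 to 0.15 without IMA10 replicate 1. Mean log2 levels in Con moved from 3.51 to 3.95 (median-of-ratios scaling), 3.75 (quantile normalization) and 3.24 (pseudocount of 0.1) for replication genes, and from 4.32 to 4.78, 4.45 and 4.17 for mitosis genes. In Sa the replication level moved from 3.96 to 3.69 with median-of-ratios scaling. Of the 55 tests of named genes that passed, 35 kept their call with median-of-ratios scaling and 20 lost it. Quantile normalization gave the same counts, 35 and 20. Under the replicate block 49 kept their call and 6 lost it. Deviations of same-numbered libraries correlated at -0.765 to 0.546, and those of differently numbered libraries at -0.684 to 0.756. Since both ranges are wide and overlap, these values cannot decide whether replicate numbers pair the samples. The number of libraries and the unknown depth limit what can be shown here.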
